A study of Mus musculus with 7 samples.

Results

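The cells described here were the few DN3b γδ+ thymocytes in which transcripts of the cell cycle genes Mki67, Top2a, Rrm2 and Tyms were almost absent. They were chosen by the measured counts of these genes. A barcode of the DN3b γδ+ library was kept when it had at least 1000 detected genes, at most 10% of its unique molecular identifiers (UMIs, tags that mark single transcript molecules) from mitochondrial genes and at most 1 UMI of the B cell genes Cd79a, Cd79b and Ms4a1, and it was a member when Mki67, Top2a, Rrm2 and Tyms together had at most 1 UMI. This rule found 754 of 11663 kept barcodes, or 6.46% (exact Clopper-Pearson 95% interval 6.03% to 6.93%), in a series with 66446 kept barcodes. Of the others, 9743 had at least 4 UMIs of these genes and 1166 had 2 or 3. They are called cycle-low and cycle-high cells here, because the former held UMIs of other cell cycle genes, as described below.

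Droplet-based single-cell RNA sequencing (10x Genomics, 3′ end, version 3 chemistry) counted UMIs per gene in 7 libraries of sorted mouse thymocytes that are CD4- CD8- (double negative, DN). There were 5 libraries from pooled thymi of WT C57BL/6 mice of 6 to 8 weeks, which held DN3a cells (CD25+, before selection on a T cell receptor, TCR), DN3b γδ- and DN4 γδ- cells, which carry CD71 after β-selection, and DN3b γδ+ and DN4 γδ+ cells, sorted as TCRδ+ CD3+ CD24+ CD44low cells with or without CD25. Another pair of libraries, DN3 γδ- and DN3 γδint, came from Lat-/-TCRd-H2BEGFP mice, which lack the TCR signalling adaptor LAT and carry a fluorescent reporter in the gene of the TCR δ chain. To each of the 7 libraries 500 splenic B cells had been added. There was 1 library per group, so that stage and library cannot be told apart and no difference was tested; the intervals given here cover counting error only.

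DN3 thymocytes recombine their TCR genes with the RAG recombinase and depend on Notch signals. Cells that place a γδ TCR on their surface receive a signal from it, enter the cell cycle, turn off the DN3 program and go on to mature, and the strength of the signal is reflected in the Egr and Nr4a transcription factors. Cells of the αβ lineage pass a corresponding point with a pre-TCR that contains the Ptcra product.

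Cycle-low cells were shallower than cycle-high cells, with a median of 8134 UMIs (range 1699 to 19147) and 2496 genes against 17546 UMIs and 3836 genes. Their UMIs summed to 6122093. Median shares of mitochondrial UMIs were 3.17% and 2.79%. Among the 754 cycle-low barcodes, 9 (1.19%) had a sequence that was also kept in another library, as had 154 of all kept barcodes of the library (1.32%). Without these 154 the share of cycle-low cells was 6.47%. For background from free RNA, 49 B-like barcodes of the same library served as reference (at least 10 UMIs of the B cell genes, at most 1 of Cd3d, Cd3e and Cd3g). Their median was 3839 UMIs, and their sums had wide intervals.

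As T cells, the cycle-low cells fitted their label. The 8 T cell markers (Cd3d, Cd3e, Cd3g, Cd247, Lck, Thy1, Bcl11b and Tcf7) summed to 5799 CPM (counts per 1000000 UMIs) in cycle-low cells, 3594 CPM in cycle-high cells and 478 CPM in B-like barcodes, a low value that their limit on Cd3d, Cd3e and Cd3g fixed in large part. Of the markers outside that limit, Lck was at 423 CPM in cycle-low cells and 78.0 CPM in B-like barcodes, Tcf7 at 456 and 72.8 CPM and Bcl11b at 238 and 52.0 CPM. Of the cycle-low cells, 13 had under 3 UMIs of Cd3d, Cd3e and Cd3g. Trdc, which codes for the constant part of the δ chain, was at 1409 CPM in cycle-low, 984 CPM in cycle-high and 218 CPM in B-like barcodes. These genes outside the limit were above the B-like level. The 8 B cell markers summed to 168 CPM in cycle-low cells and 30026 CPM in B-like barcodes, but the limits on Cd79a, Cd79b and Ms4a1 fixed both ends of this contrast. The 5 NK markers summed to 2.94 CPM against 0.220 CPM in cycle-high cells, mostly from 14 UMIs of Eomes in 7 cells, with Ncr1 and Klra8 at 0. The 7 myeloid markers summed to 137 against 119 CPM, mostly from Cst3 (129 CPM), and 3 of them (Lyz2, Itgam and Tyrobp) were at least 2-fold higher than in cycle-high cells. Lyz2 had 17 UMIs, and 17 of the 20 UMIs of Tyrobp lay in 1 cell, while Csf1r and C1qa had none. The 5 plasmacytoid markers summed to 527 CPM against 324 CPM in cycle-high cells and 458 CPM in B-like barcodes. Siglech had no UMI, and the other 4 (Ccr9, Irf8, Tcf4 and Bst2) had a median log2 ratio of 0.67 with none past 2-fold. The 4 haemoglobin genes summed to 0.327 CPM, and Cd4 had 1 UMI and Cd8a 2. The part of other cell types in the results was not tested.

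Transcripts of S phase genes were still present in the cells. Of the 754 cycle-low cells, 731 had more than 5 UMIs of 32 other S phase and G2/M phase genes, with a median of 22 UMIs per cell against 145 in cycle-high cells. This count takes no account of free RNA, which reached the same lists in B-like barcodes. The 16 S phase genes, which serve DNA replication, summed to 2386 CPM in cycle-low cells, 3872 CPM in cycle-high cells and 1331 CPM in B-like barcodes. S phase transcripts therefore stood above the B-like level. The 16 G2/M genes, which serve mitosis, summed to 1278, 5190 and 1560 CPM in the same order. Their level in cycle-low cells was below that of the B-like barcodes. Of the 49 B-like barcodes, 13 had 2 or more UMIs of the genes used for the choice.

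The rule genes are given as a description, since they chose the cells. Mki67, a proliferation antigen, was at 10.8 CPM in cycle-low cells, 362 CPM in cycle-high cells and 62.4 CPM in B-like barcodes, and 66 cycle-low cells held its single UMI. Top2a, a DNA topoisomerase, was at 33, 676 and 93.6 CPM, Rrm2, a subunit of ribonucleotide reductase, at 13.2, 307 and 41.6 CPM, and Tyms, the thymidylate synthase, at 24.2, 316 and 104 CPM. Just outside the limit, the 1166 barcodes with 2 or 3 UMIs had 36.9 CPM of Mki67, 104 CPM of Top2a, 47.8 CPM of Rrm2 and 77.2 CPM of Tyms.

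The limit cut through a gradient. From 0 UMIs of the rule genes (257 cells) to 1 UMI (497 cells), 2 UMIs (582 barcodes) and 30 or more (4253 barcodes), the median depth was 7490, 8566, 9373.5 and 22506 UMIs. The S phase sum was 2028, 2546, 3071 and 3643 CPM in these classes, with 4398 CPM in the class of 10 to 29 UMIs. The DN3 stage sum went the other way, from 806 and 684 CPM in cells with 0 and 1 UMI to 502 CPM at 2 UMIs and 297 CPM at 30 or more. Rag1, a subunit of the RAG recombinase, was at 24.4 and 23.8 CPM with 0 and 1 UMI, at 14.9 CPM with 2 UMIs, at 7.22 CPM with 4 UMIs and at 1.72 CPM with 30 or more. The chemokine gene Ccl3 was at 68.5, 54.7, 33.7, 18.1 and 2.64 CPM in the same classes. Rag1 was thus level from 0 to 1 UMI and lower from 2 UMIs on, past the limit, and Ccl3 was lower in each of these classes than in the one before. Depth moved along with the count of the rule genes, and its part in the contrast was not tested beyond 1 alternative. There, barcodes of at least 4000 UMIs were thinned to 4000 UMIs and the others left out, and 22.01% were cycle-low. The limit of 1 UMI then also took in barcodes that were not cycle-low at full depth, so that depth and membership changed together.

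**Figure D1:**
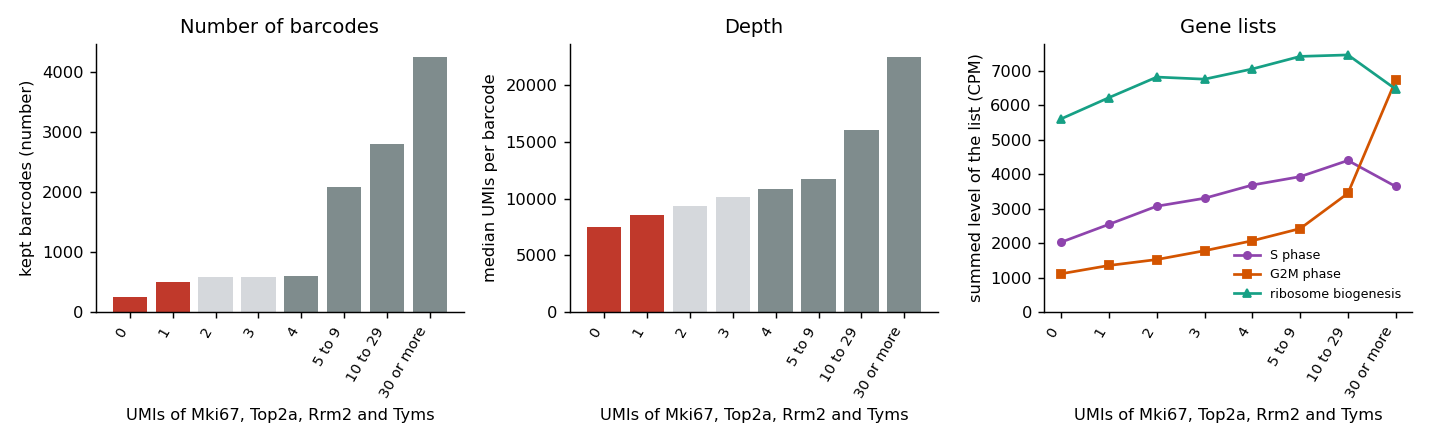
Kept barcodes of the DN3b γδ+ library by their UMIs of Mki67, Top2a, Rrm2 and Tyms (x axis): number of barcodes (left), median UMIs per barcode (middle) and summed level in CPM of the S phase, G2M phase and ribosome biogenesis lists (right). Red bars are the 257 and 497 cycle-low cells, light grey bars the barcodes with 2 or 3 UMIs and dark grey bars the 9743 cycle-high cells; depth and the S phase sum are lowest at 0 UMIs, and ribosome biogenesis spans only 5606 to 7459 CPM.

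UMIs were summed over cycle-low and over cycle-high cells, and genes with at least 10 CPM in either sum were compared. Counts within the gene lists below also take in list genes under 10 CPM, so that they have another basis than the shares over all genes. Of 7328 genes, 201 were at least 2-fold higher in cycle-low cells (2.74%) and 267 at least 2-fold lower (3.64%), and the median log2 ratio of all genes was 0.06. All of this is a description, because the contrast is the one that the rule made. Scaled instead by TMM (a trimmed mean of the ratios themselves), all ratios were 0.16 lower on the log2 scale, with 137 higher and 320 lower genes. When barcodes were thinned to 4000 UMIs before the limits were applied, 62 genes were at least 2-fold higher.

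Cell cycle genes led the lower genes. All 16 G2/M genes were at least 2-fold lower in cycle-low cells, with a median log2 ratio of −2.62, and so were all 8 replication-dependent histone genes (median −2.01), whose near-identical copies make the values of single genes uncertain. Cdk1, the kinase that drives mitosis, was at 43.1 CPM against 220 CPM in cycle-high and 41.6 CPM in B-like barcodes, and Ccna2, the cyclin A2, at 16.5 against 133 CPM and 72.8 CPM. In cycle-low cells both were thus near or under the B-like level. Among the 10 lowest genes by the naming rule were Esco2, a cohesin acetyltransferase, at 7.51 CPM (95% interval 5.50 to 10.0) against 73.6 CPM, which is a log2 ratio of −3.29 (−3.74 to −2.88), the repressor E2f8 at 4.25 against 32.4 CPM (−2.93), Depdc1a at 3.10 against 23.1 CPM (−2.90), the kinetochore gene Nuf2 at 5.55 against 41.2 CPM (−2.89), and the mitotic kinase Plk1 at 9.96 against 61.7 CPM (−2.63). The others were Neil3, Pbk, Sgo1, Tk1 and Foxm1, with log2 ratios from −2.94 to −2.52.

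S phase genes were lower by less and unevenly. Only 3 of 16, Cdc6, Cdc45 and Rrm1, were at least 2-fold lower, and the median was −0.72. Cdc6 and Cdc45, which load and start the replicative helicase, had log2 ratios of −1.68 and −1.83. Mcm5, a subunit of that helicase, was at 134 CPM against 204 CPM in cycle-high and 52.0 CPM in B-like barcodes, and its fellow subunit Mcm2 had a log2 ratio of −0.19. After thinning to 4000 UMIs, a UMI of Mcm5 was found in 34.8% of 664 cycle-low cells (31.2% to 38.5%), in 55.6% of 9152 cycle-high cells and in 25% of 20 B-like barcodes. Barcodes under 4000 UMIs were left out of these shares, and with them included the median depths of the 754, 9743 and 49 barcodes were 8134, 17546 and 3839 UMIs. A UMI of Cdk1 was found in 12.5%, 49.3% and 20%, so that its share in cycle-low cells was not shown to be above background, with only 20 B-like barcodes.

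The cyclin genes of G1 did not move together. Ccne1, the cyclin E1 that acts at the entry into S phase, was at 6.70 CPM against 34.7 CPM, a log2 ratio of −2.37, and Ccne2 had a ratio of −1.71. Ccnd1, a D-type cyclin, was at 10.5 against 3.31 CPM, a ratio of 1.66, and Ccnd2 at 336 against 178 CPM, a ratio of 0.91. Ccnd3 and the median over the 14 genes of the list were near 0, with log2 ratios of −0.10 and −0.03. The E-type cyclins were thus lower and Ccnd1 higher in cycle-low cells, by at least 2-fold each.

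Promoters of the lowest genes are shown because 3 of the 7 that were searched held the same pair of short elements known from cell cycle genes. Of the 10 lowest genes by the naming rule, 7 had a promoter with a single start in RefSeq (GRCm38.p6, from 250 bases before to 50 bases after the start). Capitals mark matches to the CCAAT box (CCAAT) and to the cell cycle genes homology region (CHR, TTTGAA), searched on both strands, so that they also read ATTGG and TTCAAA. Nuf2, at chr1:169531415-169531714 (minus strand), had no match to either and is shown for contrast. Neil3 and Tk1 also had no match to either, and Sgo1 had a CCAAT box alone, so that 3 promoters held both elements, 1 held 1 and 3 held none. The others lie at chr7:122159185-122159484 (Plk1, plus strand), chr3:159495183-159495482 (Depdc1a, plus strand) and chr7:48881547-48881846 (E2f8, minus strand). All are written 5′ to 3′ on the strand of the gene.
Plk1: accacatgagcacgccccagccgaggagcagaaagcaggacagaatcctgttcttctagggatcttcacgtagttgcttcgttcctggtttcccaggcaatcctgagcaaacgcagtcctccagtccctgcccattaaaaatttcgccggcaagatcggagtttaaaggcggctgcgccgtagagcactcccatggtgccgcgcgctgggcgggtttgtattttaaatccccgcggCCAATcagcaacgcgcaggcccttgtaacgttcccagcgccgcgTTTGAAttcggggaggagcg
Depdc1a: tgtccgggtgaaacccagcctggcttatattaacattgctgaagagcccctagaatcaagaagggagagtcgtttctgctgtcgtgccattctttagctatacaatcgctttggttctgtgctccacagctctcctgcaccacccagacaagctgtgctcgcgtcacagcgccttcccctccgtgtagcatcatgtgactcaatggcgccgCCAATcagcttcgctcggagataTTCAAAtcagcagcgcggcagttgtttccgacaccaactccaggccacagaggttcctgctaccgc
E2f8: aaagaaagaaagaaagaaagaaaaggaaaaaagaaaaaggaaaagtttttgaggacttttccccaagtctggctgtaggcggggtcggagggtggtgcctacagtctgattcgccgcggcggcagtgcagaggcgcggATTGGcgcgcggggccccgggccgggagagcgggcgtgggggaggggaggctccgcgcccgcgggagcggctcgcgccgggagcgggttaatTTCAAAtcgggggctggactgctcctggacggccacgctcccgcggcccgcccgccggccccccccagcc
Nuf2: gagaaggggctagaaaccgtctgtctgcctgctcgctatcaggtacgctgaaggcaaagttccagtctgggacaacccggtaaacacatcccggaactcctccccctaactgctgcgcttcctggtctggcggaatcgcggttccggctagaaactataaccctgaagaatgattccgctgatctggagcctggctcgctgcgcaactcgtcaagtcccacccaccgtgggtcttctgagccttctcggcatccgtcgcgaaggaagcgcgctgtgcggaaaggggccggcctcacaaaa

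The same search covered all genes. A CHR was present in 43.6% of the 181 promoters matched to the 267 lower genes, in 9.65% of the 114 matched to the 201 higher genes, in 12.1% of the 4694 matched to all genes compared and in 18.5% of 22862 promoters of the table. The shares for CCAAT were 60.8%, 41.2%, 40.3% and 38.2%, and those for CCAAT and CHR in the same promoter 33.1%, 2.63%, 5.24% and 7.21%. An E2F element (GCGGGAA) was present in 19.9%, 2.63%, 9.99% and 4.60%, but in none of the 7 promoters of the lowest genes. The lower genes thus carried all 3 elements more often than the other sets. The set of all genes compared and the whole table include these lower genes. They come from the contrast that the rule made with cell cycle genes, so their shares are no independent evidence. The search is a description of letters and not of binding.

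DN3 stage genes stood at the other end of the contrast. Of 10 genes, 8 were at least 2-fold higher in cycle-low than in cycle-high cells, with a median log2 ratio of 1.38. Rag2 and Dtx1, which are among the 8, were under 10 CPM in both sums. Rag1 (chr2:101638282-101649501, minus strand) had the highest ratio of the genes that met the naming rule, with 24.0 CPM (20.3 to 28.2) against 1.88 CPM, a log2 ratio of 3.67 (3.38 to 3.96). When barcodes were thinned to 4000 UMIs before the limits were applied, the ratio was 2.66, below those of Gm4632 (2.94) and Ccl3 (2.85). Its B-like level was 15.6 CPM, from 3 UMIs, and its 147 UMIs lay in 62 of the 754 cells. Ptcra (chr17:46755663-46763712, minus strand), the pre-TCR α chain, was at 35.4 CPM against 5.61 CPM in cycle-high and 5.20 CPM in B-like barcodes, a log2 ratio of 2.66 (2.44 to 2.87). Il2ra (chr2:11642807-11693193, plus strand), which codes for CD25, was at 83.0 against 26.8 CPM, a ratio of 1.63. Both were above the B-like level, which was 10.4 CPM for Il2ra. Dntt, the enzyme that adds bases at TCR junctions, was at 389 against 178 CPM (1.13), and Gm4632, a predicted gene at chr14:79178894-79199190 (minus strand), at 220 against 18.3 CPM (3.59). The Notch receptors Notch3 and Notch1 had log2 ratios of 2.69 and 0.85, the Notch targets Hes1 and Dtx1 1.06 each, and the Notch target Nrarp −0.42.

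Genes induced by TCR signals were also higher, to a smaller extent. Of 12 genes, 4 were at least 2-fold higher, with a median log2 ratio of 0.84, and of 0.31 when barcodes were thinned before the limits were applied. Egr2, a transcription factor of the Egr family, was at 18.5 CPM against 6.34 CPM, with no UMI in B-like barcodes, a log2 ratio of 1.54. Tnfrsf9, the costimulatory receptor 4-1BB, was at 44.3 against 17.5 CPM (1.34), and Irf4 and Nr4a3 had log2 ratios of 1.16 and 1.1. These 4 were the members past 2-fold. Irf4, which is among the 4, was under 10 CPM in both sums, with 24 UMIs in 21 cycle-low cells. Nr4a1, an orphan nuclear receptor, was at 148 against 81.6 CPM (0.86), Nab2, a corepressor of Egr proteins, at 66.5 against 37.9 CPM (0.81), and Cd5, a surface receptor set by TCR signals, at 147 against 127 CPM (0.20). The target of Egr factors Id3 had a log2 ratio of −0.16.

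The chemokines Ccl3 (chr11:83647844-83649355, minus strand) and Ccl4 (chr11:83662584-83664683, plus strand) were among the 15 highest genes that met the naming rule (at least 20 CPM in 1 sum and 10 UMIs in each, among other limits). Ccl3 was at 59.0 CPM (53.0 to 65.4) against 5.30 CPM, with no UMI in B-like barcodes, a log2 ratio of 3.48 (3.30 to 3.65). Ccl4 was at 230 against 31.8 CPM and 10.4 CPM in B-like barcodes, a ratio of 2.85 (2.77 to 2.94). Ccl3 came from 66 cells, of which 5 held 32.1% of its UMIs, and Ccl4 from 212 cells. The chemokines were thus carried by a minority of cycle-low cells. S100a4 (chr3:90603771-90606045, plus strand), a calcium-binding protein, was at 23.2 against 3.30 CPM (2.81, and 1.83 when thinned first) with its UMIs in 58 cells, and Maf, a transcription factor of IL-17-producing γδ T cells, at 72.4 against 14.5 CPM (2.32) in 208 cells. Khdc1a, Sytl1, Tspan2, Trp53inp1, Ypel2, Rgs1, Dgkeos and Ms4a4b completed the 15 highest genes that met the naming rule, with log2 ratios from 2.82 to 1.66.

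Quiescence and egress genes and interferon-stimulated genes had higher medians as well. Of 15 quiescence and egress genes, 7 were at least 2-fold higher (median 0.79, and 0.35 when barcodes were thinned first). S1pr1 and Itgae, which are among the 7, were under 10 CPM in both sums. S1pr1, the receptor that guides exit from the thymus, was at 9.31 against 0.620 CPM, a log2 ratio of 3.91, Il7r, the α chain of the IL-7 receptor, at 91.0 against 32.2 CPM (1.5), Pik3ip1, an inhibitor of PI3 kinase, at 63.1 against 21 CPM (1.58), and the antiproliferative gene Btg1 at 248 against 94.3 CPM (1.39). Klf2, which drives S1pr1, was at 91.5 against 56.4 CPM (0.70). B-like barcodes held 1248 CPM of Btg1 and 749 CPM of Klf2, and their part in these values was not tested. Of 10 interferon-stimulated genes, 6 were at least 2-fold higher (median 1.38), with Isg15, a ubiquitin-like modifier, at 68.0 against 24.2 CPM (1.49) and Ifit1 at a ratio of 3.11. Ifit1 and Ifit3, which are among the 6, were under 10 CPM. The 48 UMIs of Ifit1 lay in 19 cells, with 56.25% in 5 of them, and the 16 UMIs of Ifit3 in 6 cells. These 10 genes summed to 414 CPM in cycle-low cells, 204 CPM in cycle-high cells and 1024 CPM in B-like barcodes. The B cell markers moved with them, from 99.1 CPM in cycle-high to 168 CPM in cycle-low cells, and their part in the interferon values was not tested. The proapoptotic BCL2 family genes Pmaip1, Bbc3, Bmf and Bcl2l11 were the 4 of 11 members past 2-fold, all higher. Only 6 of the 11 reached 10 CPM in either sum. Bbc3 and Bmf did not, with 34 and 11 UMIs in cycle-low cells, and the proapoptotic Bax and Bid were within 2-fold.

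Ribosome biogenesis was almost level between cycle-low and cycle-high cells. None of 19 genes differed by 2-fold, the median log2 ratio was −0.02 and the members ranged from −0.28 to 0.27. Ncl, the nucleolar protein nucleolin, was at 1352 against 1537 CPM in cycle-high and 546 CPM in B-like barcodes (−0.19), Npm1 at 2615 against 3176 CPM (−0.28), and Nolc1 at 173 against 181 CPM (−0.07). A UMI of Nolc1 was found in 43.7% of thinned cycle-low cells, 49.0% of cycle-high cells and 15% of B-like barcodes. The growth and nutrient uptake list was likewise within 2-fold for all 12 genes (median −0.22), with Ldha, lactate dehydrogenase, at 637 against 832 CPM and Myc at 40.7 against 30.1 CPM. Cycle-low cells thus held less mitotic RNA with nearly the same share of ribosome biogenesis RNA, but in the 23 cycle-low cells that had at most 5 UMIs of S and G2/M genes the ribosome biogenesis median was −0.92. TCR and CD3 genes had a median of 0.33 with none of 11 past 2-fold, and 14 genes of the γδ TCR-induced signature, those that the study's text names, which were chosen on these libraries and are no independent evidence, had a median of 0.18 with none past 2-fold.

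**Figure D2:**
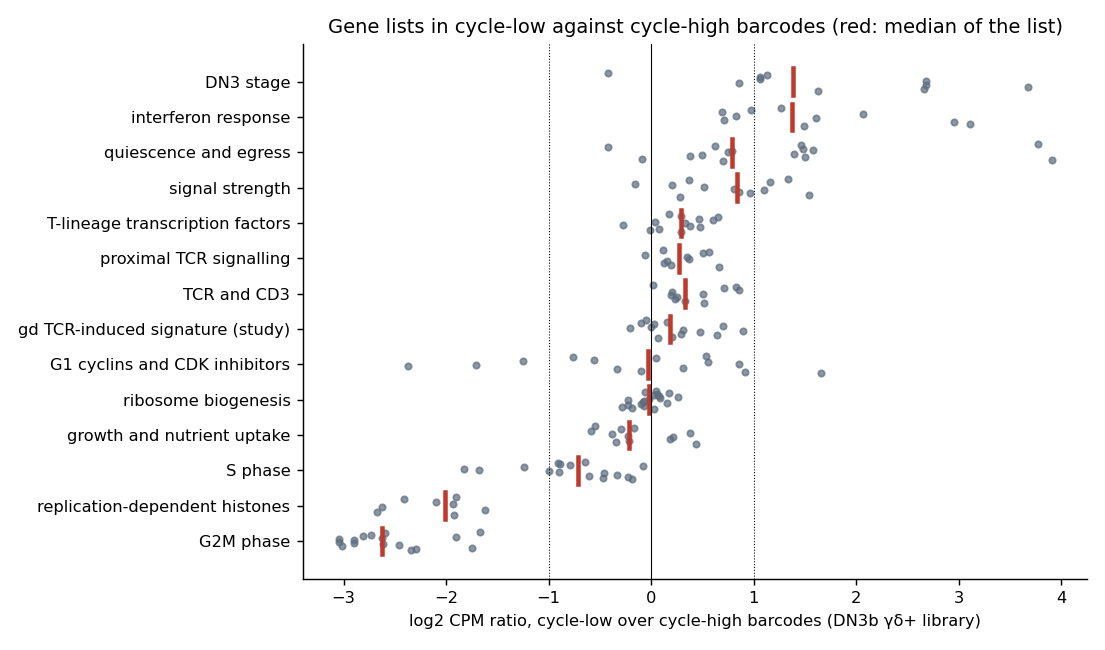
Log2 CPM ratio of cycle-low over cycle-high cells of the DN3b γδ+ library (x axis) for every gene of 14 lists (y axis). Each point is a gene, the red bar is the median of the list and dotted lines mark a 2-fold difference; G2M genes lie between −3.05 and −1.67, ribosome biogenesis genes between −0.28 and 0.27, and 8 of 10 DN3 stage genes to the right of the 2-fold line.

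Against the cycle-low cells of the neighbouring stages, those of DN3b γδ+ were compared under the same limits. DN3a had 5572 cycle-low of 6259 kept barcodes (89.0%), DN4 γδ+ 5532 of 7353 (75.2%) and DN3b γδ- 778 of 17959 (4.33%), with median depths of 7188, 6287 and 7709.5 UMIs against 8134. Depth was thus closer here than within the library. Over DN3a, 592 of 7846 genes were at least 2-fold higher (7.55%) and 741 at least 2-fold lower (9.44%). Over DN4 γδ+, 737 of 7803 were higher (9.45%) and 765 lower (9.8%), and over DN3b γδ-, 461 of 7598 were higher (6.07%) and 346 lower (4.55%). The fewest genes past 2-fold were therefore counted against the other DN3b library. The 3 comparisons share the cycle-low DN3b γδ+ cells.

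In 9 of 10 DN3 stage genes the level lay between those of DN3a and DN4 γδ+. Over DN3a, 9 of 10 were at least 2-fold lower (median −3.10), and over DN4 γδ+, 7 of 10 were at least 2-fold higher (median 2.06). Rag1 was at 495 CPM in cycle-low cells of DN3a, at 24.0 CPM in those of DN3b γδ+ and at 0.232 CPM in those of DN4 γδ+, and Il2ra at 637, 83.0 and 4.20 CPM. Ptcra was at 442, 35.4 and 0.618 CPM and Dntt at 1581, 389 and 174 CPM. The order of the stages was the same for these 4 genes. For Il2ra the step from DN3b γδ+ to DN4 γδ+ was fixed in part by the sort, which parted them by CD25. Thinned to 4000 UMIs, 73.5% of DN3a cells, 7.08% of DN3b γδ+ cells (5.25% to 9.30%) and 0.0588% of DN4 γδ+ cells held a UMI of Rag1, and none of 20 B-like barcodes did. Myl10, a myosin light chain gene, followed the same order with 1504, 402 and 22.9 CPM. Among the other genes that were lowest over DN3a were Cdh1, which codes for E-cadherin (log2 ratio −3.81), and Notch3 (−3.87).

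Genes linked to TCR signals were higher than in DN3a and DN3b γδ-. Over DN3a, 11 of 12 signal genes were at least 2-fold higher (median 3.55), and over DN3b γδ- 12 of 12 (median 4.34), while over DN4 γδ+ it was 4 of 12 (median 0.59). Egr2 was at 18.5 CPM against 0.847 CPM in DN3a, 4.46 CPM in DN4 γδ+ and no UMI in DN3b γδ-. Nr4a1 was at 148 CPM against 10.9, 98.3 and 5.86 CPM in the same order, and Cd5 at 147 against 3.60, 74.8 and 8.63 CPM. In each of these 3 genes the DN3b γδ+ cells had the highest level of these cycle-low sets. Of the 14 genes named from the signature that the study chose on these libraries, 12 were at least 2-fold higher than in DN3a, 13 higher than in DN3b γδ- and 10 lower than in DN4 γδ+ (medians 3.48, 3.26 and −1.35).

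Nrgn (chr9:37544492-37552904, minus strand), which codes for the calmodulin-binding protein neurogranin, had the highest ratio over DN3a of the genes that met the naming rule. It was at 289 CPM (276 to 303) against 0.282 CPM, a log2 ratio of 10.00 (9.19 to 10.95), and at 138 CPM in DN4 γδ+ and 2.61 CPM in DN3b γδ-. Cycle-high DN3b γδ+ cells had 383 CPM and B-like barcodes 57.2 CPM. After thinning, 32.98% of cycle-low cells held a UMI of Nrgn against 15% of B-like barcodes, 14.4% of DN4 γδ+ and 0.0921% of DN3a cells. Etv5 (chr16:22381309-22439719, minus strand), an ETS factor downstream of ERK signals, was at 62.4 CPM against 0.588 CPM in DN3a, 166 CPM in DN4 γδ+ and 1.79 CPM in DN3b γδ-. Unlike Nrgn it was higher in DN4 γδ+. B630019A10Rik, Igfbp4, Gem, A430093F15Rik, Bex6 and Izumo1r were also among the 10 highest over DN3a by that rule, with log2 ratios from 8.16 to 5.64. The chemokine gene Xcl1 had a ratio of 6.76, but 57.8% of its 187 UMIs came from 1 cell.

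Maturation genes were lower than in DN4 γδ+ cycle-low cells. Of 15 quiescence and egress genes 11 were at least 2-fold lower (median −1.51), of 9 genes of IL-17-producing γδ T cells 7 (median −1.66), and of 13 genes of interferon-γ-producing γδ T cells and NK receptors 8 (median −1.66). S100a4 was at 23.2 CPM against 273 CPM, a log2 ratio of −3.55 (−3.80 to −3.32), and Maf at 72.4 against 367 CPM (−2.34). Il2rb, the β chain of the IL-2 and IL-15 receptors, was at 10.1 against 90.5 CPM (−3.16). Cd7 (−3.28) and Ccl5 (−3.78) were lower as well, though 39.1% of the UMIs of Ccl5 came from 1 cell. The sums of the lists were 1309 against 3885 CPM for quiescence and egress, 267 against 1168 CPM for the IL-17 list and 1589 against 4168 CPM for the interferon-γ list, in which Ifng was higher, at 15.5 against 7.57 CPM.

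Most S phase and G2/M genes were higher than in the cycle-low cells of both DN3a and DN4 γδ+, while most growth and ribosome biogenesis genes were within 2-fold of DN3a. All 16 S phase genes were at least 2-fold higher than in DN4 γδ+ (median 2.11) and 14 of 16 than in DN3a (1.61), where Uhrf1 was lower (−1.16), with Mcm5 at 134 CPM against 28.7 and 26.6 CPM in DN4 γδ+ and DN3a. Of 19 ribosome biogenesis genes, 18 were at least 2-fold higher than in DN4 γδ+ (median 1.73) and 3 higher than in DN3a (median 0.72). Of 16 G2/M genes, 16 and 15 were at least 2-fold higher than in DN4 γδ+ and DN3a (medians 1.79 and 3.96). The B-like level moved with these differences: it was 1560 CPM of G2/M and 1331 CPM of S phase genes in the DN3b γδ+ library, 781 and 884 CPM in DN3b γδ-, 377 and 438 CPM in DN4 γδ+, and 159 and 384 CPM in DN3a. The G2/M sum of the DN3b γδ+ cycle-low cells, 1278 CPM, was below the B-like level of their library, and the part of free RNA in these ratios was not tested. Of 12 growth genes, 6 were higher than in DN4 γδ+ (median 1.03), and 3 were higher and Myc lower than in DN3a (median 0.73). Nolc1, which was at 173 CPM, was at 35.4 CPM in DN4 γδ+ and at 75.1 CPM in DN3a. Over DN3b γδ- cycle-low cells none of the S phase, ribosome biogenesis or growth genes differed by 2-fold, and the medians were 0.13, −0.10 and 0.10. Among the other cell cycle genes, Cdk1 (log2 ratio 1.66), Ccnd1 (3.004), Cdkn2c (1.46) and Hist1h2ap (2.15) were at least 2-fold higher and Ccnb2 (−1.33) lower. The level of Cdk1 in DN3b γδ+ cycle-low cells, 43.1 CPM, was close to the 41.6 CPM of B-like barcodes of the same library, and the part of free RNA in its ratio was not tested. The DN3 stage genes were lower in γδ+ cells (median −1.5, 9 of 10 at least 2-fold). Nrp1, a semaphorin receptor, and Ndrg1 were the lowest genes over DN3b γδ- that met the naming rule, at 4.25 against 38.4 CPM and 5.88 against 46.3 CPM.

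**Figure D3:**
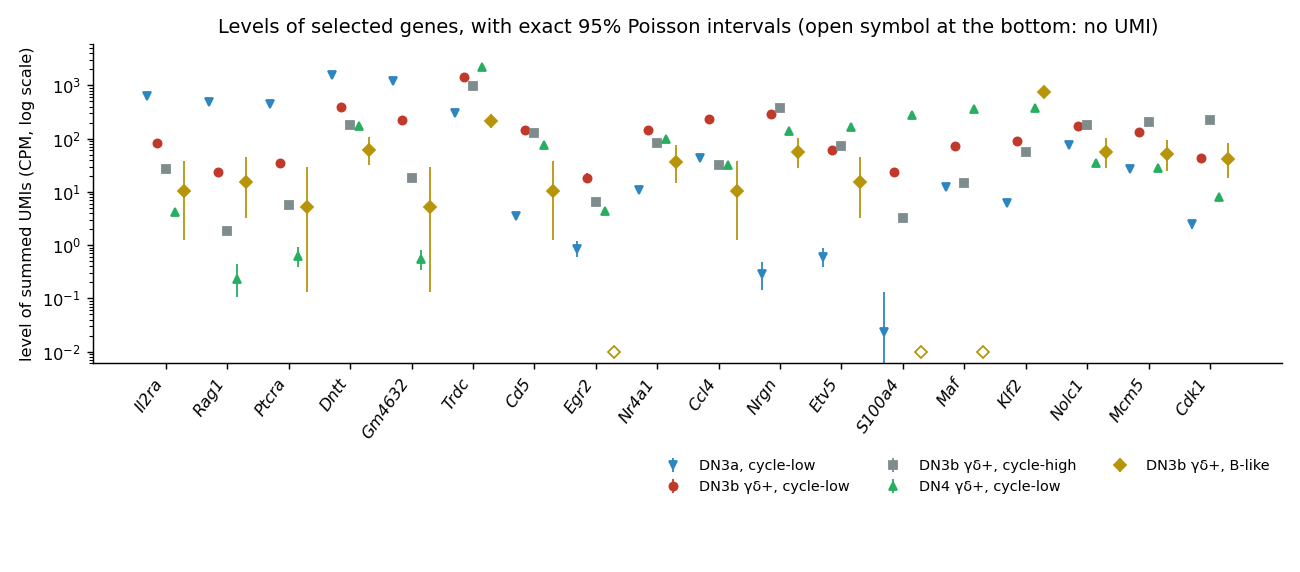
Level of summed UMIs (y axis, CPM on a log scale) of 18 genes (x axis) in cycle-low cells of DN3a, DN3b γδ+ and DN4 γδ+, in cycle-high cells of DN3b γδ+ and in its B-like barcodes. Bars are exact Poisson 95% intervals, often smaller than the symbols, and open symbols at the bottom mark no UMI. The DN3 stage genes shown (Il2ra, Rag1, Ptcra and Dntt) step down from DN3a to DN4 γδ+, with Rag1 at 495, 24.0 and 0.232 CPM. Il2ra codes for CD25, by which DN3b γδ+ and DN4 γδ+ cells were sorted.

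The contrast of cycle-low with cycle-high cells was then taken within each of the 7 libraries. DN3 stage genes had a median log2 ratio of 1.38 in DN3b γδ+ against 1.14 for DN3a, 1.1 for DN3b γδ-, 0.73 for DN4 γδ-, −0.06 for DN4 γδ+, and 0.77 and 0.85 in the Lat-/-TCRd-H2BEGFP libraries γδ- and γδint. Higher DN3 stage medians in cycle-low cells were thus found in 6 of the 7 libraries. The ribosome biogenesis median was −0.02 in DN3b γδ+ and between −1.09 and −0.43 in the other 6 libraries, and the growth median −0.22 against −1.02 to −0.49. The S phase median was −0.72 against −2.59 to −0.85. In these 3 lists the DN3b γδ+ library had the median nearest 0, which describes 7 values without a test. Its cycle-low cells also held the most UMIs of the S phase and G2/M lists, with a median of 22 per cell against 5 to 17 in the other libraries. In the 23 cycle-low cells with at most 5 such UMIs the ribosome biogenesis median was −0.92. The medians of the other libraries were taken without this limit, and the part of these UMIs in the medians was not tested. In 3 other lists it was not at the end of the range: the signal strength median was 0.84 against −0.14 to 1.94 in the other 6 libraries, quiescence and egress 0.79 against 0.65 to 2.06, and the interferon response 1.38 against 0.64 to 2.27. Rag1 had a log2 ratio of 3.67 in DN3b γδ+, 2.16 in DN3b γδ- and 2.02 in DN3a, and Ccl4 2.85 in DN3b γδ+ against 2.98 in DN3b γδ-.

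**Figure D4:**
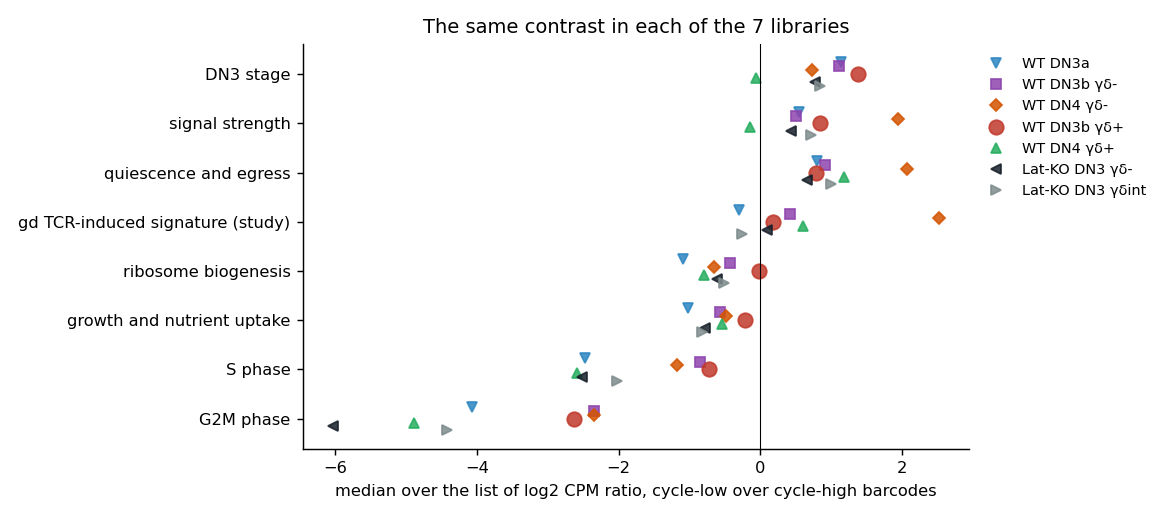
Median log2 CPM ratio of cycle-low over cycle-high barcodes (x axis) of 8 gene lists (y axis) within each of the 7 libraries, where a symbol is a library and the large red circle is DN3b γδ+. The red circle lies at −0.02 for ribosome biogenesis, where the others lie between −1.09 and −0.43, and at 1.38 for the DN3 stage, the highest of the 7.

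The cycle-low cells were not uniform. After thinning to 4000 UMIs, which kept 664 of 754 cells, they were split by their UMIs of Il2ra into 527 cells with 0 (79.4%), 111 with 1 or 2 (16.7%) and 26 with 3 or more (3.92%), which are ranges of a count and not cell types. Ptcra was at 10.9, 173 and 346 CPM in these ranges, and its UMIs were found in 2.66%, 31.5% and 65.4% of the cells (95% interval of the last 44.3% to 82.8%). Rag1 was at 10.4, 85.6 and 212 CPM, with shares of 2.09%, 20.7% and 50%. The DN3 stage transcripts were therefore gathered in the same cells. Notch1 was at 57.9, 209 and 385 CPM and its target Hes1 at 61.7, 207 and 433 CPM.

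Genes of the γδ lineage had the opposite order along Il2ra. Trdc was at 1532, 1079 and 740 CPM, though a UMI was found in 84.6% of the 26 cells with most Il2ra against 45% of B-like barcodes. Cd5 was at 158, 94.6 and 19.2 CPM, Nrgn at 290, 133 and 38.5 CPM, and Etv5 at 70.2, 22.5 and 0 CPM. Neither Etv5 nor Klf2 had a UMI in the 26 cells, where the exact interval of the share reached 13.2%. Signal strength genes summed to 1318, 932 and 644 CPM, whereas ribosome biogenesis was at 5842, 5860 and 4519 CPM and the G2/M list at 1239, 1126 and 1115 CPM. The sum of the 14 genes of the study's γδ signature was 1950, 847 and 587 CPM.

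Other splits were made after the values of these genes had been seen. A UMI of S100a4 or S100a6 was found in 57 of the 664 cells. In these 57, Klf2 was at 382 CPM against 86.5 CPM in the 607 others, Cd52, a small surface glycoprotein, at 1842 against 367 CPM, Ccr9, a homing receptor, at 991 against 242 CPM, S1pr1 at 74.6 against 7.0 CPM, and Sox13, a factor of IL-17-producing γδ T cells, at 276 against 70.4 CPM. The cells with S100a4 or S100a6 thus held more egress and γδ maturation RNA. Gm4632, Ptcra and Rag1 had no UMI in the 57 cells (exact upper limit 16.2 CPM each), against 268, 56.0 and 33.8 CPM. Ribosome biogenesis genes summed to 3276 against 6029 CPM and S phase genes to 1092 against 2268 CPM. B cell markers summed to 412 CPM in these cells against 150 CPM in the others, and their part in the difference was not tested.

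A UMI of Ccl3 or Ccl4 was found in 150 cells. The signal strength list summed to 1482 CPM in them against 1153 CPM in the 514 other cells. Of its genes, chosen after their values were seen, Nab2 was at 117 against 45.7 CPM, Nr4a1 at 252 against 113 CPM, Egr3 at 41.7 against 13.6 CPM and Egr2 at 33.3 against 13.6 CPM. Ribosome biogenesis summed to 6865 against 5480 CPM, and Srm, the spermidine synthase, was at 203 against 127 CPM. Sox13 and Cpa3, a carboxypeptidase gene of the γδ signature, were lower, at 26.7 against 106 CPM and 45 against 129 CPM. At least 3 UMIs of Isg15, Ifit1 and Ifit3 were found in 20 cells, in which Irf7 and Bst2 were at 125 and 750 CPM against 10.8 and 193 CPM in the 556 cells with none.

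These ranges overlapped to different extents. Of the 137 cells with a UMI of Il2ra, 1 (0.730%) also held S100a4 or S100a6, against 8.58% of all 664 cells, while 35 (25.5%) held Ccl3 or Ccl4, against 22.6% of all. Of the 57 cells with S100a4 or S100a6, 2 (3.51%) held Ccl3 or Ccl4. The cells with Il2ra and those with S100a4 or S100a6 were thus almost separate. In 351 cells (52.9%) none of these 4 marks was met.

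**Figure D5:**
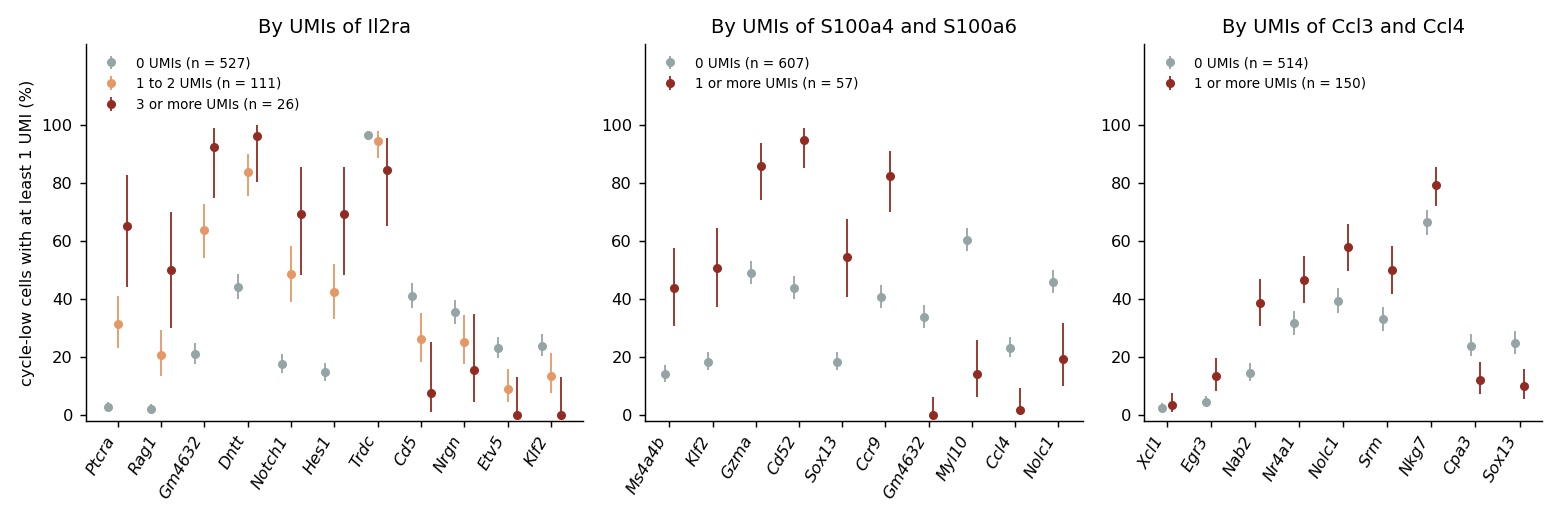
Share of thinned cycle-low DN3b γδ+ cells with at least 1 UMI of a gene (y axis, %) by UMIs of Il2ra (left), of S100a4 and S100a6 (middle) and of Ccl3 and Ccl4 (right). Points are shares with exact Clopper-Pearson 95% intervals at 4000 UMIs per cell and n is the number of cells; Ptcra goes from 2.66% to 65.4% with Il2ra, and Gm4632 is at 0 in the cells with S100a4 or S100a6.

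TCR variable segments were sparse in these 3′ end libraries. In thinned cycle-low cells a UMI of Tcrg-V1 was found in 12.8% (10.4% to 15.6%), of Tcrg-V4 in 5.57%, of Trdv5 in 6.02% and of Trdv2-2 in 3.31%. Of these, Tcrg-V4 was found in 5% of B-like barcodes and was not shown to be above background, and the other 3 were found in none of 20. So few barcodes cannot set a background level for shares of this size. In DN4 γδ+ cycle-low cells the shares were 13.3%, 16.4%, 8.64% and 10.8% in the same order, so that the counting intervals of Tcrg-V4, Trdv5 and Trdv2-2 in the DN3b γδ+ cells lay below these shares, and Tcrg-V1 differed by less than its counting interval.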

How the data were processed

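The deposited matrices held UMI counts per gene and barcode, which the authors had made with Cell Ranger (4.0.0 per the file headers, 5.0.1 in the submitters' processing notes) on mm10 with a Trdc reporter sequence added (32286 features). They were neither scaled nor corrected. Levels of Trdc are those of the feature of that name alone, whereas the study added the counts of the reporter feature to it. Doublets had been gated out by scatter at the sort, before cells were loaded into droplets. The study later filtered out clusters of B cell and T cell doublets, a step that was not repeated here. Spiked B cells were left in. Kept barcodes, cycle-low and cycle-high cells were set per library as stated above, UMIs were summed and scaled to CPM, and ratios were compared by size with numpy 2.4.6, pandas 2.3.3, scipy 1.17.1, scanpy 1.11.5 and matplotlib 3.10.9 (Python 3.11.15). Intervals are exact 95% Poisson (levels), Clopper-Pearson (shares) and conditional binomial (ratios) intervals. In ratios, sums of 0 UMIs were set to 3. A list median covers all genes of the list with a ratio. Gene positions are from GENCODE vM21 (GRCm38).

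Members, gene lists and naming rule were chosen with earlier results of these data known. Named genes were the 15 highest and 10 lowest over cycle-high cells, the 10 highest and 10 lowest over DN3a and over DN4 γδ+ and the 5 over DN3b γδ-, with at least 20 CPM in 1 sum and 10 UMIs in each, without ribosomal protein, mitochondrial and rule genes, TCR segments and genes higher in B-like barcodes, and up to 4 genes per list. Further genes were chosen after their values were seen. The code was tested on simulated counts. Alternatives changed the limit on the rule genes, the depth, the barcode filter, doublets (the 8% highest scrublet scores), scaling and the minimum CPM.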

Additional observations from a re-analysis of the deposited data

How the results depend on the processing

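No paired analysis was possible because there was 1 library per group and no test. The counts of genes moved most with no minimum CPM and in the 23 cells with few other S phase and G2/M UMIs. Depth and the limit on the rule genes came next, and the cause was not tested. In the small sum over the 23 cells, a gene can pass the minimum CPM with very few UMIs. Counts of genes in the 23 cells are therefore given as values of that setting and not as differences in level. Leaving out barcodes shared with another library, which was chosen after seeing the data, moved no count or median given below beyond its limits.

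The share of cycle-low cells was 2.20% with 0 UMIs of the rule genes, 22.01% when barcodes were thinned to 4000 UMIs first, 8.88% with the study's filter (at least 200 genes, at most 15% mitochondrial UMIs), 6.999% without the 8% highest scrublet scores, and 0.197% without cells of more than 5 UMIs of S phase and G2/M genes, which left 23. Genes at least 2-fold higher over cycle-high cells numbered 353 with 0 UMIs, 62 thinned, 2406 in the 23 cells and 1894 with no minimum CPM, and lower genes 822 in the 23 cells and 645 with no minimum CPM. List medians with 0 UMIs were 1.15 for signal strength, 1.02 for quiescence and egress and 0.39 for the γδ signature. Thinned first, they were 0.13 for ribosome biogenesis, 0.996 for the DN3 stage, 0.31 for signal strength, 0.35 for quiescence and egress and 0.026 for the signature. In the 23 cells they were −0.92, 2.14, 1.17, 1.90 and 0.92 in that order, and with TMM −0.17 for ribosome biogenesis, 1.22 for the DN3 stage, 0.63 for quiescence and egress and 0.022 for the signature. In the 23 cells, genes higher than in DN3a, DN4 γδ+ and DN3b γδ- numbered 1797, 1620 and 906, and genes lower than in DN3b γδ- 965. With no minimum CPM, 1529 were higher and 2036 lower than in DN3a, 1595 and 2046 than in DN4 γδ+, and 1238 and 1203 than in DN3b γδ-.

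Of the 25 genes named over cycle-high cells, all 25 kept their direction and a 2-fold ratio in 7 of 8 alternatives. In the 23 cells, 23 of 25 kept their direction and 20 of 25 a 2-fold ratio. The log2 ratio of Ptcra was 0.98 there and that of Ccl3 1.06. With so few cells, ratios of genes at low levels can turn on single UMIs. This setting therefore cannot decide which of these genes kept a difference. In the 23 cells the log2 ratios of Neil3 and Foxm1 were 0.20 and 0.50, opposite in sign to the values over all cycle-low cells. A sum without UMIs was set to 3 in ratios, which can by itself give a positive ratio in so few cells. A reversal in level is therefore not read from these values.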
